A study of Mus musculus with 8 samples.

Results

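The enzymes of gluconeogenesis in the small intestine were read through 6 genes, G6pc, Pck1, Pck2, Fbp1, Pcx and Slc37a4, which were taken by symbol from the RefSeq names of the array's probes. Each was represented by 1 probe, and the 6 probes occupied 15 spots, 10 of them for Pck2, out of 39429 probes in all. All 6 genes were among the 21302 genes tested.

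Gluconeogenesis, the making of glucose from lactate, glycerol and amino acids, is best known from the liver and the kidney, and the small intestine carries the same enzymes. Pyruvate carboxylase and the phosphoenolpyruvate carboxykinases turn pyruvate into phosphoenolpyruvate, fructose-1,6-bisphosphatase reverses the committing step of glycolysis, and glucose-6-phosphatase releases free glucose inside the endoplasmic reticulum after a transporter has carried glucose-6-phosphate there. Glucose made in enterocytes is released towards the portal vein, and insulin lowers the transcription of G6pc and Pck1 in the liver.

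Small-intestinal RNA of mice of the strain C57BL/6J Min/+ was hybridised to 8 single-colour Agilent arrays. The Min allele truncates the Apc tumour suppressor, so every mouse, controls included, carries the mutation that gives rise to intestinal adenomas. The 4 groups of 2 arrays were Western female, Western male, Control female and Control male. Western animals received a Western-type diet in which milk fat made up 66.4% of all fat and rapeseed and sunflower oils the other 33.6%, and control animals received the unmodified semisynthetic AIN-93G diet. Feeding is labelled as 18 months, no age is given, and each array held RNA of 1 to 3 mice. The labels do not state that the arrays of a group came from different mice, so the spread behind each p-value is that of arrays and may hold technical variation. The RNA was that of bulk tissue, in which fewer cells of a type and less RNA per cell cannot be told apart. Levels are log2 signals from which the 75th percentile of the same array was subtracted, so a level of 0 equals that percentile.

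The 75th percentile of the signal was 486 to 902 across arrays, and no spot was saturated. Well above background were 55.1% to 61.9% of probes on 7 arrays and 75.6% on Control female 2, which also stood apart on the first principal component (43.4% of the variance). Control female 1 carried the Y-linked transcripts Ddx3y and Eif2s3y at -0.46 and 1.90, against -1.04 to -0.67 and 1.75 to 2.45 on the male arrays, and at most -6.91 and -5.58 on the other female arrays. The name under which it was deposited also gives the other diet. It is kept here in its labelled group, so "Control female 1" means the array labelled so, and results that rest on it are given with and without it. The first arrays of the 4 groups shared slide 1, Western male 2 was alone on slide 2, and the other Western female, Control female and Control male arrays were on slide 3, which was scanned on another day.

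The enterocyte character of the tissue was plain on every array. All 15 enterocyte markers, among them Vil1, Fabp2 and Sis, were well above background on all 8 arrays, with a summed level, in multiples of the 75th percentile, of 1843 to 2862 on Western arrays and 2227 to 2779 on control arrays. Liver and kidney are the main sites of gluconeogenesis. Of 13 hepatocyte markers, 7 were tested, with a summed level of 13.9 to 24.4 on Western arrays and 10.4 to 25.5 on control arrays, and Alb, Ahsg, Fgg and Hpx were above background on 0 arrays. Serpina1a (3.29 to 4.63), Tat, Cyp2e1, Apoh and Hpd were above background on all 8 arrays. Of 8 markers of the kidney proximal tubule, 4 were tested. Their summed level was 0.064 to 0.10 on Western arrays and 0.10 to 0.13 on the control arrays other than Control female 2. It was 0.34 on Control female 2, the array with the most probes well above background.

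The promoters of G6pc and Pck1 are shown because these were the 2 genes with the higher level on the Western diet. Each window runs from 250 bases before to 50 bases after the RefSeq start (GRCm38.p6, plus strand), at chr11:101367466-101367765 for G6pc and chr2:173152823-173153122 for Pck1. Capitals mark every match, on either strand, to 5 motifs, which are the TATA box, a cAMP response element half-site, the core of the Foxo insulin response element, a nuclear receptor half-site and the CCAAT box.
G6pc: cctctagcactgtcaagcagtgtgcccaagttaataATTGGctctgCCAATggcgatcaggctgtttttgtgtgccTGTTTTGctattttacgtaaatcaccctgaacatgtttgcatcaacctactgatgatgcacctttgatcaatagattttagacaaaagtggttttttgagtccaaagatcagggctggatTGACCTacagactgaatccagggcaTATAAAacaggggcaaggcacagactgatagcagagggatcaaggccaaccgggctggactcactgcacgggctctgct
Pck1: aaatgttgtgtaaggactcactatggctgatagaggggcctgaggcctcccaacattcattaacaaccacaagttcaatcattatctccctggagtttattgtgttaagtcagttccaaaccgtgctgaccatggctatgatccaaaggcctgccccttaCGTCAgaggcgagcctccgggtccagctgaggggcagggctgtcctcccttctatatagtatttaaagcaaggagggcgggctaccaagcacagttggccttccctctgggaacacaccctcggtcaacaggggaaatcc

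Positions are counted from the start site, and shares are of 32851 mouse promoter windows of the same length. The TATA box was searched as TATAAA, which stood at -29 in the G6pc window and occurs in 13.6% of all windows. The nuclear receptor half-site was searched as AGGTCA, which the G6pc window held on the minus strand at -54 and which 16.3% of all windows contain. The core of the Foxo insulin response element was searched as CAAAACA, found on the minus strand of the G6pc window at -174 and in 6.28% of all windows. The CCAAT box stood in the G6pc window at -204 and, on the minus strand, at -214, and it occurs in 37.4% of all windows. The half-site of the cAMP response element was searched as CGTCA, which was the only motif in the Pck1 window, at -90, and which 20.8% of all windows contain. None of these matches overlapped another, and the G6pc and Pck1 windows shared no motif. A match is a description of the letters only.

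The first comparison asked whether the Western diet went with a different level of these genes. G6pc and Pck1 had the higher means on the Western diet, by 1.14 and 1.36 on the log2 scale, while Pcx, Pck2, Slc37a4 and Fbp1 had means 0.26 to 0.40 lower, though that of Pck2 was higher under quantile normalization. None of the 6 had every Western array above every control array, as 0.864% of all genes had, and none had every Western array below every control array, as 2.29% had. None of the 6 differences passed the adjusted threshold of 0.05 in limma, where 0 of 21302 genes did (0.0%). Of the 6 genes, 1 (G6pc) had an unadjusted p under 0.05 and was higher, against 0.648% of all genes that were higher (138 genes) and 3.63% that were lower (773 genes). The median difference was -0.26 over the 6 genes and -0.06 over all genes tested, of which 40.5% were higher on the Western diet.

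**Figure D1:**
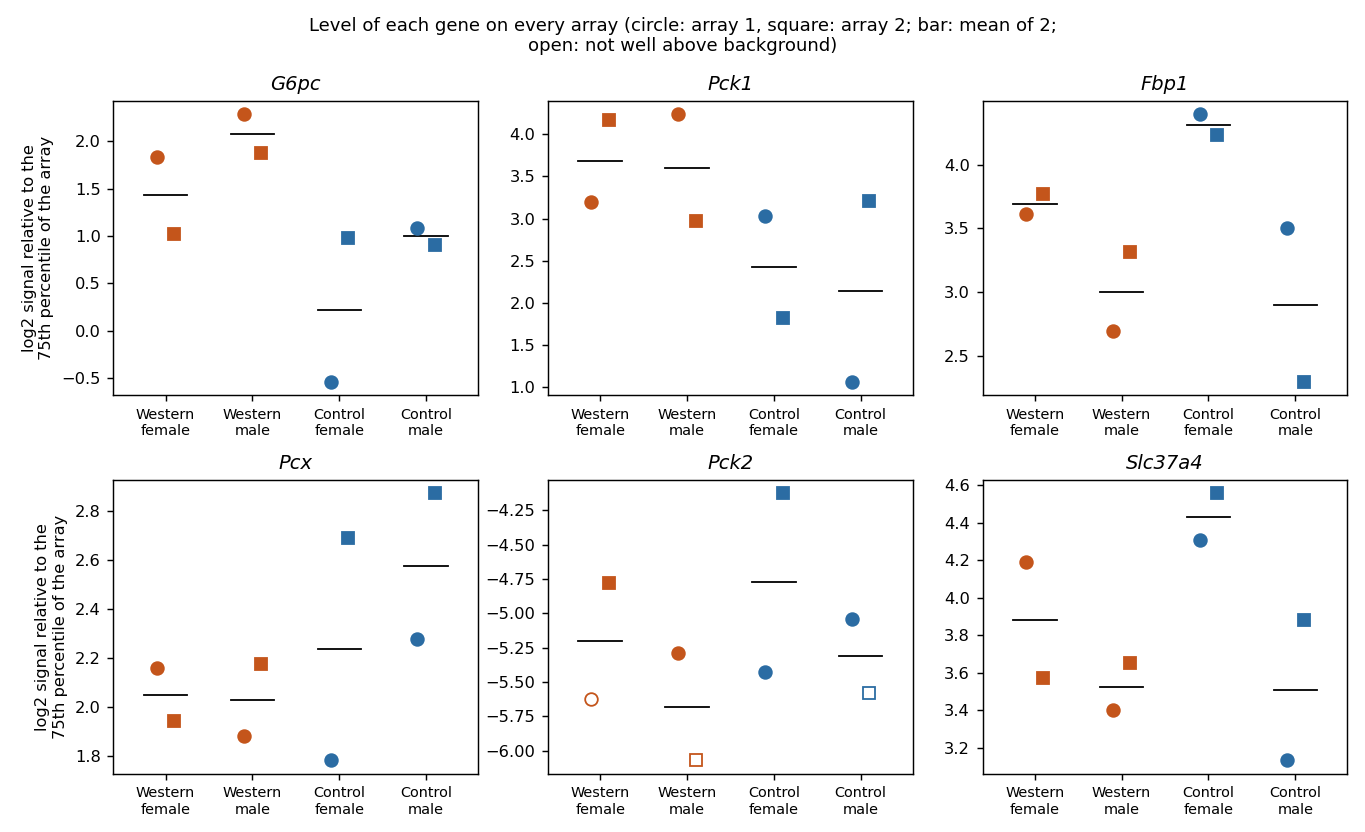
Level of each of the 6 genes on every array, as log2 signal relative to the 75th percentile of the array, with Western groups in orange left of control groups in blue. Circles are array 1, squares array 2, bars the mean of 2, and open symbols arrays where the probe was not well above background, which occurred for Pck2 on 3 arrays. The vertical scales differ between panels.

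G6pc encodes the catalytic subunit of glucose-6-phosphatase, the last step of the pathway. It stood at 1.83 and 1.02 on the Western female arrays and at 2.29 and 1.87 on the Western male arrays. The control arrays gave -0.53 and 0.98 in females and 1.09 and 0.91 in males. The upper 3 Western arrays lay above all 4 control arrays, and Western female 2 lay within their range. The 4 Western arrays averaged 1.75 ± 0.53 and the 4 control arrays 0.61 ± 0.77 (SD, n = 4 each). The difference was 1.14 ± 0.38 (SE; 95% confidence interval 0.21 to 2.08), a 2.21-fold higher level, with an adjusted p of 0.995 in limma. The exact two-sided permutation test over the arrays gave p = 0.0571, where 70 assignments allow no p below 0.0286.

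The control mean of G6pc rested in part on Control female 1, the lowest of the 8 arrays. Counted with the diet of its deposited name, it would be the lowest Western array and lie below every remaining control array. A fit with it counted so was not run. Without Control female 1 the fitted difference was 0.76, and without Control female 2 it was 1.52. The exact two-sided permutation test over 35 assignments gave p = 0.114 in each case, where no p below 0.0571 is possible. Within slide 1 the Western array was higher by 2.37 in females and by 1.20 in males, whereas within slide 3 the Western female array exceeded the Control female array by 0.04. With slide as a block the difference was 1.29 and with scan day as a block it was 1.19. The 9 tested of 10 markers of the proximal small intestine summed to 248 to 906 on Western arrays and 226 to 765 on control arrays, with the lowest mean levels on Control male 1 and Control female 1 (-0.40 and -0.38 relative to their mean over all arrays). Pearson's r of G6pc with the mean of these markers was 0.50 over the arrays, and 0.92 for deviations from the group means. That value was not particular to proximal markers. For such deviations r was also 0.80 with distal small intestine markers and 0.88 with the kidney markers. With the remaining marker lists it ran from -0.52 (goblet and Paneth cells) to 0.71 (immune cells). The part of the proximal markers in the G6pc difference was not tested beyond these values.

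Pck1 encodes the cytosolic phosphoenolpyruvate carboxykinase. Its level was 3.20 and 4.18 on the Western female arrays and 4.24 and 2.97 on the Western male arrays. The control arrays gave 3.03 and 1.82 in females and 1.06 and 3.21 in males. In each Western group 1 array lay above all control arrays, and the other lay within the control range, so the diets overlapped. The means were 3.65 ± 0.66 on the Western diet and 2.28 ± 1.02 on the control diet (SD, n = 4 each). The difference was 1.36 ± 0.61 (SE; 95% confidence interval -0.14 to 2.87), or 2.58-fold, with an adjusted p of 0.995 in limma, and the exact two-sided permutation test gave p = 0.143.

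The Control male arrays weighed most on the Pck1 difference, which was 0.83 without Control male 1 and 1.90 without Control male 2. Control male 1 also had the most smooth muscle RNA, with a mean level of the 10 markers 2.98 above their mean over all arrays. Their sum was 52.3 there, against 9.74 to 21.7 on Western arrays and 7.18 to 18.5 on the other control arrays. Pck1 is also made in fat cells. The 8 tested fat cell markers summed to 8.59 to 38.6 on Western arrays and 7.57 to 11.8 on control arrays, and Western female 2 held the highest value, with Adipoq at 0.94 there against at most -2.52 elsewhere. Without Western female 2 the Pck1 difference was 1.12. The leptin gene Lep was above background on 0 arrays. Over the arrays, Pearson's r of Pck1 was 0.14 with the fat cell marker mean and -0.67 with the smooth muscle marker mean. For deviations from the group means r was 0.02 and -0.61. Without the 2 arrays farthest from the median of the marker mean r was -0.40 and -0.16, Control male 1 being left out in both cases. Within Western arrays r was 0.66 and 0.75, and within control arrays -0.99 and -0.90. With the remaining marker lists r over all arrays ran from -0.69 (kidney proximal tubule) to 0.05 (immune cells). The part of fat cells or smooth muscle in the Pck1 difference was not tested beyond these values. Within slide 1 the Western array was higher by 0.17 in females and by 3.18 in males, and within slide 3 by 2.36 in females, and with slide as a block the fitted difference was 1.84.

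Fbp1 encodes fructose-1,6-bisphosphatase 1. It stood at 3.61 and 3.77 on Western female arrays and at 2.70 and 3.32 on Western male arrays, against 4.39 and 4.23 on Control female arrays and 3.51 and 2.30 on Control male arrays. The control range enclosed the Western range. The diet difference was -0.26 ± 0.31 (SE; 95% confidence interval -1.01 to 0.49) and turned to 0.04 without Control male 1.

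Pcx encodes pyruvate carboxylase, the mitochondrial enzyme that feeds the pathway with oxaloacetate. It was even across Western arrays, at 2.16 and 1.94 in females and 1.88 and 2.17 in males, against 1.78 and 2.69 in Control females and 2.28 and 2.88 in Control males. Control female 1 lay below every Western array, and the other 3 control arrays lay above every Western array. The difference was -0.37 ± 0.27 (SE; 95% confidence interval -1.02 to 0.28). Without Control female 1 it was -0.59, and every Western array was then below every control array, as were 3.8% of all genes. Without Control female 2 it was -0.14.

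Slc37a4 encodes the transporter that brings glucose-6-phosphate to glucose-6-phosphatase. Its level was 4.19 and 3.57 in Western females and 3.40 and 3.65 in Western males, against 4.31 and 4.56 in Control females and 3.13 and 3.88 in Control males. The control range again enclosed the Western range, and the difference was -0.27 ± 0.25 (SE; 95% confidence interval -0.87 to 0.33). It was -0.46 without Control male 1 and -0.08 without Control male 2. Within slide 1, both sexes averaged, the Western minus control difference was -0.80 for Fbp1, -0.01 for Pcx and 0.07 for Slc37a4, and between the females of slide 3 it was -0.46 for Fbp1, -0.75 for Pcx and -0.99 for Slc37a4.

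Pck2 encodes the mitochondrial phosphoenolpyruvate carboxykinase and was at the limit of detection. Its probe was well above background on 5 arrays, and not on Western female 1, Western male 2 and Control male 2. The mean level of its spots was -5.62 and -4.78 in Western females and -5.29 and -6.07 in Western males, against -5.43 and -4.12 in Control females and -5.04 and -5.58 in Control males. The diets overlapped, and the difference was -0.40 ± 0.39 (SE) and 0.34 under quantile normalization, so no direction is given. On Control female 1 the 10 spots had an SD of 0.87, against 0.20 to 0.32 on the other arrays.

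**Figure D2:**
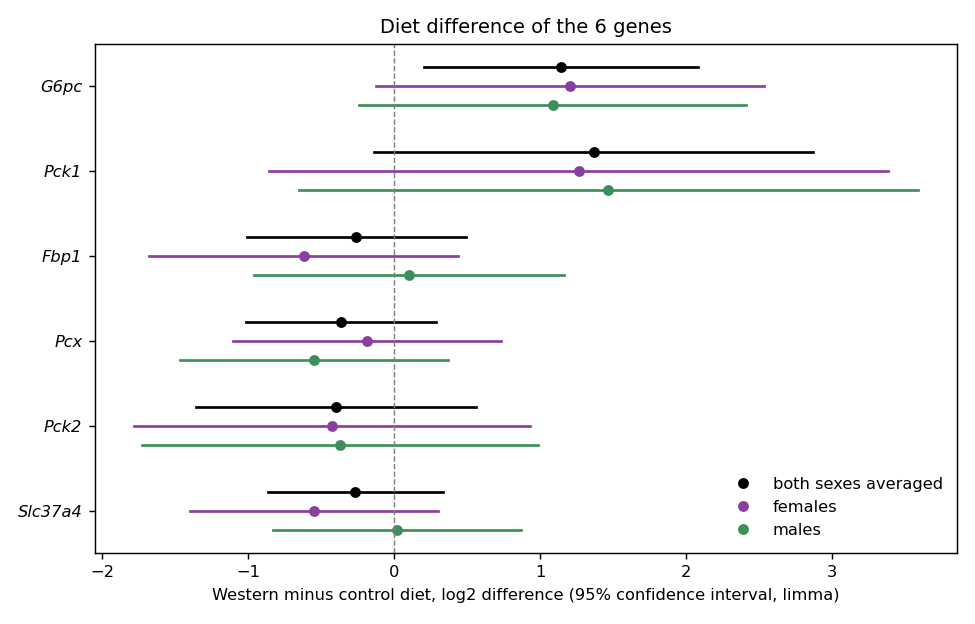
Western minus control diet for the 6 genes as log2 differences, averaged over the sexes (black), in females (purple) and in males (green), with 95% confidence intervals from limma. The interval of G6pc averaged over the sexes, 0.21 to 2.08, is the only interval drawn that leaves out 0.

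The diet difference was then taken within each sex and compared between the sexes. In females and in males 0 of the 6 genes passed the adjusted threshold, as did 0.0% of all genes in each sex, and 0 of the 6 had an unadjusted limma p under 0.05. Such an unadjusted p was reached by 0.601% of all genes with a higher and 4.5% with a lower level in females, and by 0.582% with a higher and 0.718% with a lower level in males. G6pc was 1.20 higher on the Western diet in females (95% confidence interval -0.12 to 2.53) and 1.08 higher in males (-0.24 to 2.41). The female value was 0.44 without Control female 1 and 1.96 without Control female 2. Pck1 was 1.26 higher in females (-0.86 to 3.38) and 1.47 higher in males (-0.66 to 3.59). The female value of Pck1 was 1.87 without Control female 1 and 0.66 without Control female 2, and the male value was 0.39 without Control male 1 and 2.54 without Control male 2. Fbp1 and Slc37a4 gave -0.62 and -0.55 in females, against 0.10 and 0.02 in males. The difference between the sexes in the diet effect was 0.12 ± 0.77 for G6pc, -0.20 ± 1.23 for Pck1, -0.72 ± 0.61 for Fbp1 and -0.57 ± 0.49 for Slc37a4 (SE; adjusted p of 1.00 in limma for each), so no such difference was detectable with 2 arrays per group. In this comparison too 0 genes of all tested passed (0.0%), and an unadjusted p under 0.05 was reached by 0 of the 6 genes, against 0.46% of all genes in the positive and 1.16% in the negative direction. The count of genes called in females moved to 392 (1.84%) without Control female 1 and to 2 (0.00939%) without Control female 2. None of the 6 genes was among either set.

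**Figure D3:**
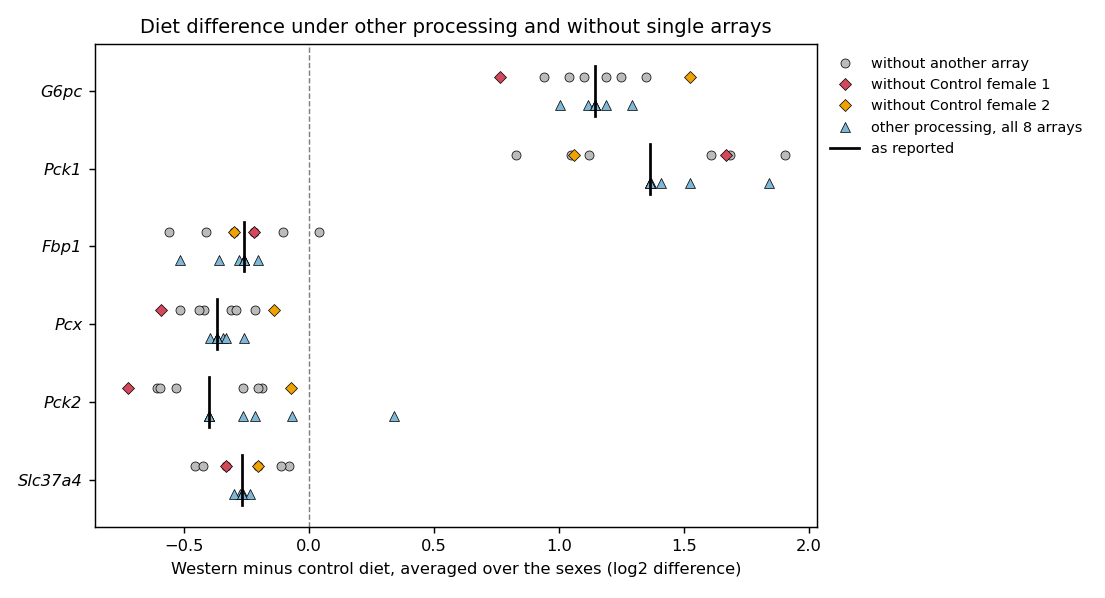
Diet difference (Western minus control, both sexes averaged, log2) of the 6 genes under other settings. Black bars are the values as reported, blue triangles other processing of all 8 arrays, grey circles and coloured diamonds fits without 1 array. G6pc and Pck1 stayed above 0 throughout (0.76 to 1.52 and 0.83 to 1.90 without single arrays), and Pck2 and Fbp1 crossed 0.

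The sexes were compared over both diets, female minus male. Of the 6 genes, Fbp1 was the one that separated them by label. Its female arrays stood at 3.61, 3.77, 4.39 and 4.23 and its male arrays at 2.70, 3.32, 3.51 and 2.30, so every female array lay above every male array, which held for 1.96% of all genes. The means were 4.0 ± 0.37 in females and 2.95 ± 0.56 in males (SD, n = 4 each). The difference was 1.05 ± 0.31 (SE; 95% confidence interval 0.30 to 1.80), or 2.07-fold, with an adjusted p of 0.906 in limma, and the exact two-sided permutation test gave p = 0.0286, the smallest it allows. The adjusted threshold was passed by 0 of the 6 genes and 0.0% of all genes. An unadjusted p under 0.05 with a higher female level was reached by 2 of the 6 genes, Fbp1 and Slc37a4, and by 2.66% of all genes. With a lower female level it was reached by 0 of the 6 and 1.19% of all genes, and 0 of the 6 had every female array below every male array, as 1.03% of all genes had.

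The array that carries Y-linked transcripts, Control female 1, was on the female side of this comparison and had the highest Fbp1 level of all arrays (4.39). Counted as male, it would lie above every female array, and the separation would not hold. A fit with it counted as male was not run. Without Control female 1 the fitted Fbp1 difference was 1.01. The remaining female arrays still lay above all male arrays, as did 3.63% of all genes. The plain difference of the means was then 0.92, for which the exact permutation test over 35 assignments gave p = 0.0571, its lower limit. Among Western arrays alone, where both Y-linked transcripts were at -5.58 or lower in females, Fbp1 was higher in females by 0.68. Within slide 1, which includes Control female 1, it was higher in females by 0.90, and between the control arrays of slide 3 by 1.93. Under quantile normalization the exact permutation p for Fbp1 was 0.0571.

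Slc37a4 averaged 4.16 ± 0.42 in females and 3.52 ± 0.32 in males (SD, n = 4 each), a difference of 0.64 ± 0.25 (SE; 95% confidence interval 0.04 to 1.24) with an adjusted p of 0.906 in limma. The upper 3 female arrays lay above all male arrays, and the exact permutation test gave p = 0.0857. Without Control female 1, which was among those 3, the difference of the means was 0.59, 2 female arrays lay above all male arrays and the exact permutation p was 0.171. Among Western arrays alone the female minus male difference of Slc37a4 was 0.35. Within slide 1, which includes Control female 1, it was 0.98 and between the control arrays of slide 3 it was 0.67. G6pc averaged 0.83 ± 0.99 in females and 1.54 ± 0.65 in males, a difference of -0.71 ± 0.38 (SE), which was -0.33 without Control female 1. The female minus male differences of Pck1, Pck2 and Pcx were 0.19, 0.51 and -0.16, each smaller than 2 of its standard errors.

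How the 6 genes varied together was examined over the 8 arrays, as a description, since the arrays share their diets and sexes. G6pc and Pck1 had r = 0.24 (exact permutation p = 0.551, adjusted over the 15 gene pairs 0.706) and rho = 0.19 (exact permutation p = 0.665, adjusted 0.935). Without the 2 arrays farthest from the median of G6pc, r was 0.18, and the deviations from the group means had r = -0.48. The highest Pck1 levels, on Western male 1 and Western female 2, fell on the highest and the lowest Western level of G6pc. After adjustment 0 of the 15 pairs and 0 of 54 pairs of a gene and a cell type marker list passed. Among 12393 named genes above background on every array, the 5 with a pattern most like G6pc were Vwa5a (r = 0.97), Inava (0.96), Tulp4 (0.95), Psmb9 (0.95) and Rnf169 (0.94), and those most like Pck1 were Pcgf6 (0.94), Plscr1 (0.92), Gclc (0.90), Slc30a10 (0.89) and Wipi2 (0.89). Pck1 itself ranked 2792 for likeness to G6pc. All 5 genes most like G6pc had their lowest level, like G6pc, on Control female 1. They were picked by r with G6pc over these same arrays, so a shared low there follows in part from the choice. Vwa5a, for example, stood at -0.82 there, against 0.32 to 0.76 on the other control arrays and 0.67 to 1.20 on Western arrays.

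**Figure D4:**
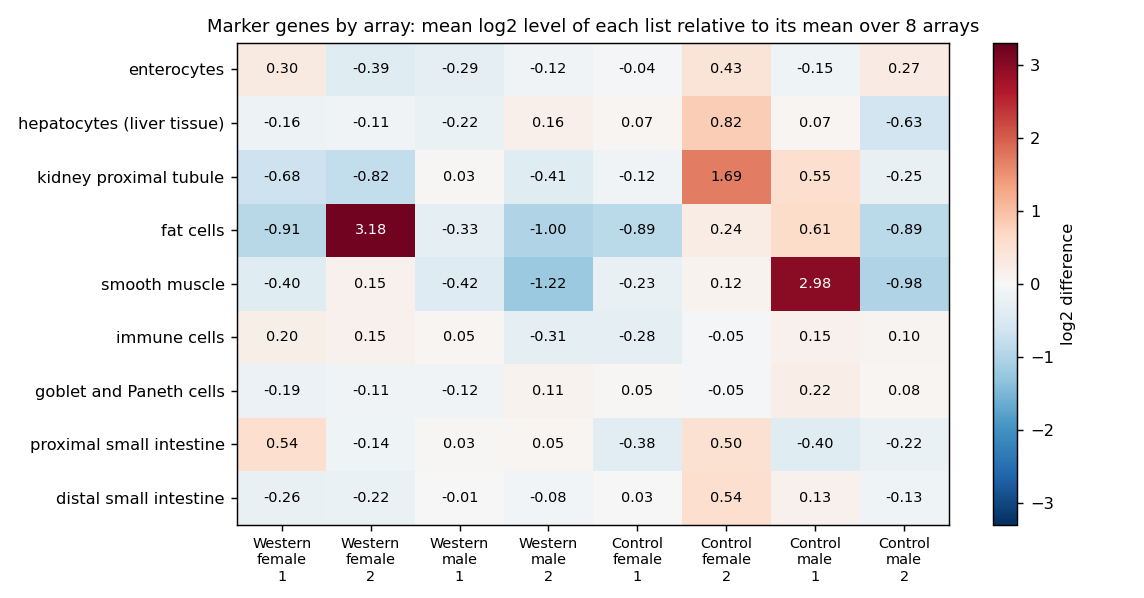
Mean log2 level of 9 marker lists on each array, relative to the mean of that list over the 8 arrays, with Western arrays left of control arrays. Fat cell markers on Western female 2 (3.18) and smooth muscle markers on Control male 1 (2.98) stand out.

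The rest of the pathway was read from lists of its neighbours, none of whose members passed the adjusted threshold for diet in limma (adjusted p of 0.995 or more for every gene named here). The opposing irreversible steps of glycolysis, catalysed by hexokinases, phosphofructokinases and pyruvate kinases and set by the Pfkfb enzymes, had 14 of 14 genes tested, with 3 higher and 11 lower on the Western diet and a median of -0.23, against -0.06 for all genes. Pklr, the liver and intestinal pyruvate kinase, was at 0.19 and 0.31 in Western females and 0.18 and 0.21 in Western males, against 0.46 and 0.79 in Control females and 0.37 and 0.41 in Control males. Every Western array of Pklr lay below every control array, as did 2.29% of all genes, with a difference of -0.29 ± 0.14 (SE). The muscle-type pyruvate kinase Pkm gave -0.49 ± 0.28 (SE), with -0.70 without Control female 1 and -0.28 without Control female 2, and Pfkfb2 gave 0.30 ± 0.17 (SE). Pfkfb4 gave 0.10 ± 0.17 (SE) by its brightest probe, -0.31 by its other probe, which was above background on 2 arrays, and -0.10 by the mean of both.

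The reversible steps that both pathways share had 10 of 10 genes tested, 3 higher and 7 lower, with a median of -0.12. The enolase Eno1 gave -0.28. Gapdh gave 0.02 by its brightest probe and -0.35 to -0.18 by its other 6 probes, and Aldoc gave 0.03. The brightest Gapdh probe gave -0.0063 under quantile normalization. Of 6 close relatives of the enzymes and the transporter, 5 were tested and G6pc2 was not. Their median was 0.05, with 3 higher and 2 lower, and the differences of the named ones ran from -0.18 (Slc37a1) to 0.13 (Slc37a2, above background on 4 arrays), with Fbp2 at -0.04 and Slc37a3 at 0.08. Under normexp background correction Slc37a2 gave -0.06.

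Enzymes and carriers through which lactate, amino acids, glycerol and fructose enter the pathway had 21 of 22 genes tested (Sds was not), 8 higher and 13 lower, with a median of -0.11. Tkfc, the triokinase of fructose breakdown, was at 3.04 and 2.46 in Western females and 2.38 and 2.82 in Western males, against 3.72 and 3.63 in Control females and 2.74 and 2.80 in Control males. Within each sex the means were lower on the Western diet, and the ranges of the diets overlapped. The difference was -0.55 ± 0.19 (SE) and ran from -0.69 to -0.41 without single arrays. Gpd2, the mitochondrial glycerol-3-phosphate dehydrogenase, lay at 2.51 to 3.40 on Western arrays and at 3.43 to 3.55 on control arrays. Every Western array of Gpd2 lay below every control array, as did 2.29% of all genes, and the difference was -0.43 ± 0.22 (SE). It was -0.65 without Western female 1 and -0.20 without Western female 2, and -0.18 within slide 1 and -0.997 between the females of slide 3. Mitochondrial malate dehydrogenase Mdh2 gave 0.27 and the pyruvate carrier subunit Mpc2 gave 0.11.

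Transcriptional regulators known to act on gluconeogenesis genes, mostly from mouse liver, had 26 of 27 genes tested (Nr4a3 was not), 15 higher and 11 lower, with a median of 0.03. Klf15, a zinc finger factor that in mouse liver supports amino acid breakdown and gluconeogenesis, was at -1.94 and -1.25 in Western females and -1.93 and -1.26 in Western males, against -1.58 and -2.94 in Control females and -2.79 and -2.91 in Control males. Control female 1 lay among the Western arrays and the other 3 control arrays lay below all of them. The difference was 0.96 ± 0.36 (SE), and it was 1.30 without Control female 1 and 0.62 without Control female 2. Ppargc1a, a coactivator induced in fasted liver, was at 0.47 and 0.18 in Western females and 1.60 and 0.14 in Western males, against 1.27 and 1.60 in Control females and 2.14 and 1.07 in Control males. All Western arrays other than Western male 1 lay below all control arrays, the difference was -0.92 ± 0.40 (SE), and its other probe gave -0.59. It was -1.29 without Western male 1 and -0.56 without Western male 2. The Wnt pathway factor Tcf7l2 gave -0.35 ± 0.16 (SE), with every Western array below every control array, as for 2.29% of all genes. Its other probes gave -0.40 and -0.87. The bile acid receptor gene Nr1h4 gave 0.29 ± 0.25 (SE).

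**Figure D5:**
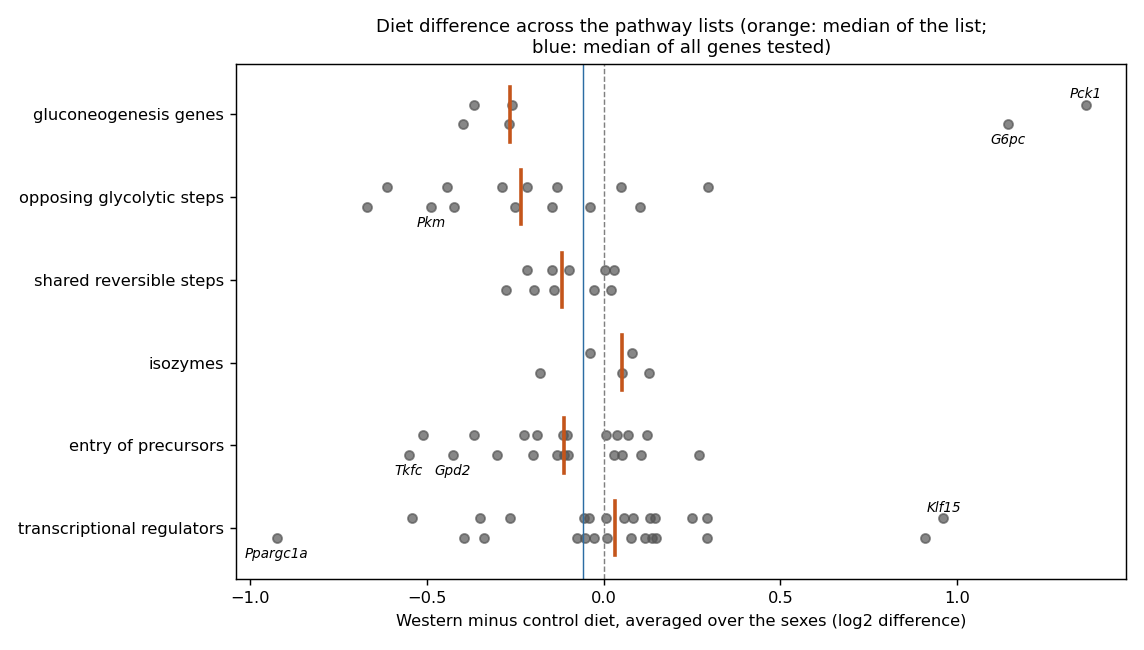
Diet difference (Western minus control, both sexes averaged, log2) of each tested gene (grey points) of the 6 gluconeogenesis genes and of 5 neighbouring lists. Orange bars are the medians of the lists (-0.26, -0.23, -0.12, 0.05, -0.11 and 0.03 from top to bottom) and the blue line is the median of all genes (-0.06).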

How the data were processed

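RNA of the small intestine was measured on 8 single-colour Agilent arrays (design 026655), 2 per group. The deposited column used was the processed signal, a linear intensity per spot that Feature Extraction 10.7.3.1 gives after background subtraction, per the file headers. The headers name the mouse build mm9, and no normalization between arrays is recorded in them.

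Control spots (1377) and spots marked as outliers by the scanner software (94 to 216 per array) were left out, the spots of a probe were averaged, and each array's 75th percentile was subtracted from log2 of the signal. Accessions were named, without versions, through RefSeq names (GRCm38.p6), which gave a symbol to 26412 of 39429 probes. A probe counted as well above background on an array where the software marked most of its spots so, and probes so marked on at least 2 arrays were kept (25732). The brightest probe stood for a gene (21302 genes, 14823 of them with a symbol), and all 6 genes passed.

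Differences were fitted over all genes with limma 3.58.1 (R 4.3.3, data.table, version 1.17.8) as 4 group means, with Benjamini-Hochberg adjustment and a threshold of 0.05. Permutation tests were exact and two-sided, over all assignments of arrays to groups or, for correlations, all pairings (SciPy 1.17.1). The number of arrays limits the precision. Alternatives were normexp background correction (offset 50), quantile normalization, other filters on dim probes, all probes of a gene, slide, scan day or replicate number as a block, and fits without single arrays. The fitting script was tested on simulated data.

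The members, the lists and the tests were chosen with earlier results of these data known. Named genes were every member, up to 2 genes of each list and direction with the smallest p for diet, and the 5 genes most like G6pc and Pck1. A separation of the diets in list genes named by their p follows in part from this choice. Not every gene so chosen is reported here. Ddx3y and Eif2s3y served to check the sex labels.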

Additional observations from a re-analysis of the deposited data

Results flagged for a closer look

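G6pc on Control female 1 lay at -0.53, far below the other 3 control arrays, which stood between 0.91 and 1.09. The gap to the nearest of them was 0.888 of the whole range of the control arrays, above Dixon's 95% critical value for 4 samples. The 4 control and 4 Western arrays, and the 4 female and 4 male arrays, were examined for each of the 6 genes, 24 groups in all, and chance alone exceeds this value in about 1 in 20 groups. Control female 1 is also the array that carries Y-linked transcripts and was deposited under a name that gives the other diet. On it Pcx had its lowest level (1.78) and Fbp1 its highest (4.39) of the 8 arrays. The part of that array's identity in these values was not tested.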

How the results depend on the processing

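The diet differences of G6pc and Pck1 kept their sign under every setting run, with 1.00 to 1.29 and 1.36 to 1.84 under other processing, and none of the 6 genes passed the adjusted threshold under any setting. For G6pc and Pck1 the other filters on dim probes, the mean over probes and the replicate block could not change the difference. Each of these genes had 1 probe, above background on all 8 arrays, and the replicate numbers are balanced over the groups. Quantile normalization turned Pck2 to 0.34 for diet, 0.85 in females, 1.01 for the difference between the sexes in the diet effect and -0.10 for sex, changed Slc37a4 in males to -0.050, and left 0 genes, in place of 1, with an exact permutation p under 0.05 for sex. Normexp, which was added after the data were seen and run on the median signal, gave -0.0048 for Slc37a4 in males and 0.0049 for the Pck2 difference between the sexes. Slide as a block gave, in males, 0.29 for Pck2, -0.41 for Fbp1 and -0.045 for Slc37a4, then -0.17 for the G6pc difference between the sexes and -0.29 for Pck1 by sex, and scan day as a block gave -0.10 for Fbp1 in males. Without both Control female arrays, diet in males gave 1.08 for G6pc and 1.47 for Pck1. These are the values with all arrays, and leaving out female arrays could not change them, because each group has its own mean in the fit. The causes were not tested.

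Without single arrays, diet gave -0.56 to 0.042 for Fbp1. In males it gave -0.76 to 0.021 for Pck2, -0.50 to 0.70 for Fbp1 and -0.36 to 0.39 for Slc37a4, and in females -1.08 to 0.22 for Pck2 and -0.64 to 0.27 for Pcx. The difference between the sexes in the diet effect ranged from -0.64 to 0.88 for G6pc, -1.28 to 0.87 for Pck1, -0.71 to 0.60 for Pck2 and -0.090 to 0.82 for Pcx. Female minus male ranged from -0.35 to 0.72 for Pck1 and -0.38 to 0.068 for Pcx. The counts of called genes ranged from 0 to 392 in females, 0 to 2 for the difference between the sexes and 0 to 3 for sex, with the highest counts without Control female 1 in each. The lone array left in a group was taken to vary like the other groups.

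With the replicate number as a block G6pc gave 1.14 (adjusted p of 0.985 in limma) and 0 genes were called. The balance of the numbers over the groups fixes that difference at the value without the block. Same-numbered arrays had correlations of deviations from -0.12 to 0.35 over 6 pairs of groups, and the labels do not pair them. The first arrays share slide 1, and all second arrays but Western male 2 share slide 3 and its scan day. Of the 5 genes most like G6pc, 3 were shared without Control female 2 and 1 by Spearman's rho, and for Pck1 2 and 1. The search was not repeated without Control female 1, on which G6pc and all 5 genes most like it had their lowest level. Normexp on the mean signal was not run, and the median signal took its place. Pck2 lies near background, so its level has little precision.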
